A study of Homo sapiens with 8 samples.

Results

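The first 2 days of cardiac differentiation take human embryonic stem cells (hESC) to mesoderm (MES), and the regions whose chromatin opened or closed over that interval are described here. Open chromatin was read by ATAC-seq, in which a transposase cuts accessible DNA and a region with many cuts is called as a peak. The peaks of 2 hESC and 2 MES libraries on chromosomes 1 to 22 and X were merged into 228827 regions. A region was called opened where both MES libraries and neither hESC library had a peak, which held for 17334 regions (7.58% of all). It was called closed in the reverse case, for 11372 regions (4.97%), and kept where all 4 libraries had a peak, for 59796 regions (26.1%). The remaining 140325 regions had a peak in some other combination of the 4 libraries and enter no class.

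The series holds 8 libraries of the RUES2 line, 2 for each of 4 stages: hESC at day 0, MES at day 2, cardiac progenitors (CP) at day 5 and cardiomyocytes (CM) at day 14. Cells were plated on laminin-521 in E8 medium with the ROCK inhibitor Y-27632, and E8 with 1 µM CHIR-99021, a GSK3 inhibitor that switches on Wnt signalling, replaced it a day later. The hESC libraries were made at the end of that day of CHIR-99021, so the day 0 cells were not free of the Wnt agonist. The medium then became RPMI with albumin, ascorbic acid and 3 µM CHIR-99021, and the MES libraries were made 48 h afterwards. Both doses are in micromolar as the study's methods give them, whereas the labels write mM. The CP and CM cells had later received the Wnt inhibitor Xav-939. All cells came from 1 line, the labels name no sorting step, and they do not say whether the libraries of a stage came from separate cultures.

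The libraries differed in how many peaks they held. On the chromosomes used, hESC replicate 1 had 103118 peaks and replicate 2 had 156117, and MES replicate 1 had 108340 and replicate 2 had 156179. The later libraries held between 55777 and 120133. The counts of opened and closed regions follow from which libraries are asked to agree. Without hESC replicate 1 there were 19232 opened and 52230 closed regions, without hESC replicate 2 there were 28452 and 21517, without MES replicate 1 there were 53255 and 13640, and without MES replicate 2 there were 26958 and 22912. Opened regions therefore outnumbered closed ones in the full comparison and without 3 of the libraries, but not without hESC replicate 1. With 2 libraries a stage an exact permutation test cannot give a p under 0.3333, so class membership and the shares below are descriptions, with 95% Wilson intervals that cover counting error only.

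During gastrulation, cells of the epiblast pass through the primitive streak, where Wnt, NODAL and FGF signals switch on T-box factors such as TBXT and EOMES, and then leave it as mesoderm or definitive endoderm. Pluripotent cells are held in their state by POU5F1 (OCT4), SOX2 and NANOG, and OCT4 with its partners binds an octamer sequence. GATA factors act soon after, in cardiac mesoderm and in endoderm. Most regulatory sites that differ between such cell types are enhancers far from transcription start sites, whereas promoters tend to be open in many cells.

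The reference sequence under 9 opened regions and 1 closed region is given first, since the consensus sequences described further on are read from such windows. Each is 200 bp of GRCh38, plus strand, around the summit of the strongest peak, and capitals mark matches on either strand to the letters AGATAA of GATA factors, TCACACC of T-box factors, ATCAAAG of TCF/LEF, GGATTA of GSC/OTX and ATTTGCAT of the octamer, or to those of the paired homeodomain site, a TAAT and an ATTA 3 bases apart. These windows were chosen after their values were seen, as examples of the genes described below and of each of those letters. Among RefSeq promoters of 300 bases, 10.3% hold the GATA letters, 3.46% the T-box, 2.63% the TCF/LEF, 6.34% the GSC/OTX, 0.366% the paired homeodomain and 1.77% the octamer letters. A match describes the letters and is neither a binding site nor a cause. The first 4 windows belong to regulators of the primitive streak and its derivatives: TBXT (Brachyury) at chr6:166195345-166195544, with no match, and at chr6:166223203-166223402, GSC (goosecoid) at chr14:94796253-94796452 and CER1, a secreted NODAL antagonist, at chr9:14723408-14723607.
TBXT, 26.6 kb upstream: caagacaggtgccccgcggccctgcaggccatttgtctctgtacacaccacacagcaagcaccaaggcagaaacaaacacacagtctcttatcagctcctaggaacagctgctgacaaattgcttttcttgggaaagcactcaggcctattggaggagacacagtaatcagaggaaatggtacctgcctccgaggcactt
TBXT, 54.6 kb upstream: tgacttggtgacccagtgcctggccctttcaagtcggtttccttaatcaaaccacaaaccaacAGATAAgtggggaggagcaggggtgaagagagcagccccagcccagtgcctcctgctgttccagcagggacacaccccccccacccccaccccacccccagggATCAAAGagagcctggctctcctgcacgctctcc
GSC, 26.2 kb upstream: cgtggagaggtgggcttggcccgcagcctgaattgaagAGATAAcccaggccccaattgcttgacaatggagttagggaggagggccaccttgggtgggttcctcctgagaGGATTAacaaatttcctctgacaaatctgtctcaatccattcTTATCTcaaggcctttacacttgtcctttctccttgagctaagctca
CER1, 0.742 kb upstream: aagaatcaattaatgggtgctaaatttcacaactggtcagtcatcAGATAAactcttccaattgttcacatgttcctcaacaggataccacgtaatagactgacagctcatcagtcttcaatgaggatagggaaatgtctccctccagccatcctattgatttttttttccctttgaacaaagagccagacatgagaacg
The next windows lie by HAND1, a factor of cardiac mesoderm, at chr5:154517242-154517441, in an intron of FN1, which encodes fibronectin, at chr2:215417508-215417707, by the heart T-box gene TBX20, in an intron of another gene, at chr7:35332084-35332283, in an intron of SGCD, which encodes a sarcoglycan of muscle, at chr5:155884129-155884328, and by FOXA2, an endoderm factor, at chr20:22601476-22601675.
HAND1, 39.1 kb upstream: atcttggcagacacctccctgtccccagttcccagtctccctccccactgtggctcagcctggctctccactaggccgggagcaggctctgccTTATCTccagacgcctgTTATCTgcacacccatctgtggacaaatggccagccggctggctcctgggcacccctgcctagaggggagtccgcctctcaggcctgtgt
FN1, 18.5 kb downstream: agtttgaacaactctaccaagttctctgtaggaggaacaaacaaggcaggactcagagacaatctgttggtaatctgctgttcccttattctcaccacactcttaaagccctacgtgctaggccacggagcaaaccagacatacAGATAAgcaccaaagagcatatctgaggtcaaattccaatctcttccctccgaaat
TBX20, 78.1 kb upstream: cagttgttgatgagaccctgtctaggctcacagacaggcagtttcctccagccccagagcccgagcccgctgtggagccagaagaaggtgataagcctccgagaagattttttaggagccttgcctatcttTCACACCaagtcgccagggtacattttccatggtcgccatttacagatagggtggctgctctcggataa
SGCD, 13.9 kb downstream: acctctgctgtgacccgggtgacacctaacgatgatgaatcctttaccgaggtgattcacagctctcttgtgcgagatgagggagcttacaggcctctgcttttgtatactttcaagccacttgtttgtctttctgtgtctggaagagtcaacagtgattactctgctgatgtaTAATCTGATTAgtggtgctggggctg
FOXA2, 16.1 kb upstream: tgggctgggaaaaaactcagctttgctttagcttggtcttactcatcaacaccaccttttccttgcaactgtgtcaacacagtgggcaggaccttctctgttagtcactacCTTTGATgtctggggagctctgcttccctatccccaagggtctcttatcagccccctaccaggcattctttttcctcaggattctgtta
The closed window lies by the odorant receptor gene OR6A2, at chr11:6801164-6801363, and carries the octamer letters.
OR6A2, 1.46 kb upstream: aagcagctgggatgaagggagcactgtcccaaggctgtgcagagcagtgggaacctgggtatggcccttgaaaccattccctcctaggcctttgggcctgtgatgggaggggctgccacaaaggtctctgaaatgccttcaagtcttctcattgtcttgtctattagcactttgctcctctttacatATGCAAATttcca

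Opened and closed regions lay far from transcription start sites (TSS). A TSS of a protein-coding gene was within 1 kb of 430 opened regions (2.48%, 2.26 to 2.72%) and of 327 closed regions (2.88%, 2.58 to 3.20%), against 16090 kept regions (26.9%) and 9.81% of all merged regions. The median distance was 61389 bp for opened, 60960 bp for closed and 19239 bp for kept regions. Introns of the gene held 43.4% of opened and 41.9% of closed regions, and intergenic sequence 37.5% and 38.0%. Opened and closed regions were narrower than kept ones, with median widths of 367, 339 and 601 bp, and their windows were poorer in G and C, with medians of 49, 49.5 and 57%. A kept region merges the peaks of 4 libraries and an opened or closed one those of 2, which widens kept regions by construction. The median width over all merged regions was 326 bp. Leaving out hESC replicate 2 gave the highest share of opened regions near a TSS, 4.30%, and all 4 such comparisons left the kept share at 23.4% or more.

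Height is given as the deposited fold enrichment, the height of a library's strongest peak in the region over the local background. Opened regions had a median fold of 4.75 in MES replicate 1 and 5.28 in replicate 2, and the highest values were 17.1 and 17.5. Closed regions had medians of 4.49 and 4.63 in the hESC libraries, with highest values of 12.1 and 14.1. Kept regions were taller, with medians of 6.05 and 6.43 in hESC and 6.07 and 6.89 in MES. The strongest opened regions outnumbered the strongest closed ones: the weaker of the 2 libraries reached a −log10 q of 20 or more in 2031 opened regions (11.7%) and in 281 closed regions (2.47%). Just outside the rule lay regions with both MES libraries and 1 hESC library, 1851 with replicate 1 and 10931 with replicate 2, whose hESC peak had a median fold of 4.19 and 4.10. A further 2216 and 11428 regions had both hESC libraries and MES replicate 1 or 2, with a median fold of 4.07 and 4.46 for that MES peak. In cultures read as a whole, a region open in fewer cells and a region less open in every cell cannot be told apart.

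The genes of the primitive streak carried many opened and few closed regions. A region was assigned to the protein-coding gene with the nearest TSS within 100 kb, which placed 154317 regions, of which 6.91% were opened, 4.49% closed and 30.2% kept. Among 24 primitive streak and early mesoderm factors, 35 of 279 regions were opened (12.5%) and 4 were closed (1.43%), and 16 genes had an opened and 4 a closed region, against 29.8% and 24.4% of all protein-coding genes. The opened share of this list was above that of all genes in each of 9 settings, by a ratio of 1.22 to 1.97. It rose to 26.8% without MES replicate 1, when 22% of all assigned regions counted as opened, and to 21.8% without hESC replicate 2, when 14.0% did. The closed share rose to 13.6% without hESC replicate 1, against 22.4% over all genes.

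TBXT, the T-box factor that defines the streak, had 4 opened and no closed region. The region 26.6 kb upstream had a fold of 8.12 in MES replicate 1 and 8.70 in replicate 2, and peaks of 5.45 to 10.3 in all 4 CP and CM libraries. The region 54.6 kb upstream, with the GATA and TCF/LEF letters printed above, had folds of 7.12 and 8.55 in MES and no peak in any later library. The region 53.6 kb downstream had 6.10 and 10.8, and the one 5.5 kb upstream 3.65 and 4.50. Around these, 7 kept regions of TBXT included its promoter, with folds of 5.33 and 4.45 in hESC and 4.88 and 5.59 in MES. The kept region 36.4 kb upstream had 4.22 and 5.25 in hESC and 9.35 and 8.33 in MES, a log2 change of 0.86 (SE 0.19, limma adjusted p = 0.00546). That call was lost without MES replicate 1 (adjusted p = 0.0976).

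EOMES, a T-box factor of streak and endoderm, had 1 opened region among 12 kept ones. This region, 48.5 kb downstream, had folds of 8.26 and 7.27 in MES and was next seen in CP replicate 1 alone, at 4.49. Its window belongs to a family of 1771 regions of related sequence, described further on, of which 25.4% were opened. The promoter of EOMES was kept, at 3.83 and 4.59 in hESC and 4.80 and 4.69 in MES. The kept region 10.1 kb downstream of its TSS had 4.20 and 5.01 in hESC and 2.70 and 2.86 in MES, a log2 change of -0.77 (limma adjusted p = 0.00775), which was lost without MES replicate 2 (adjusted p = 0.0656) and turned to 0.48 when height was taken as pileup over the mean background of a library (adjusted p = 0.044).

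GSC, the homeobox factor of the organizer, had the tallest opened region of these streak genes. It lay 26.2 kb upstream, with folds of 10.4 and 11.0 in MES, and reached only 3.25 in CP replicate 2 among the later libraries. MIXL1, a homeobox factor of mesendoderm, had 1 opened region 4.9 kb downstream, at 2.88 and 2.92, and MESP1, which specifies cardiac mesoderm, had no opened or closed region and 2 kept ones. LHX1, a LIM homeobox factor, had 5 opened regions and the homeobox gene EVX1 had 4, the tallest of which, 20.6 kb downstream, had folds of 6.76 and 8.83. The growth factor receptors that mark early mesoderm opened too. PDGFRA had 3 opened regions, with the tallest at 9.42 and 8.89 in an intron 11.2 kb downstream, and KDR had 3, with the tallest at 8.01 and 7.81, 92.5 kb downstream, and peaks in all 4 later libraries. In the map of 8 genes every promoter carried a kept region, and most opened regions lay further away. An opened region of CER1 lay 0.742 kb upstream of its TSS.

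**Figure D1:**
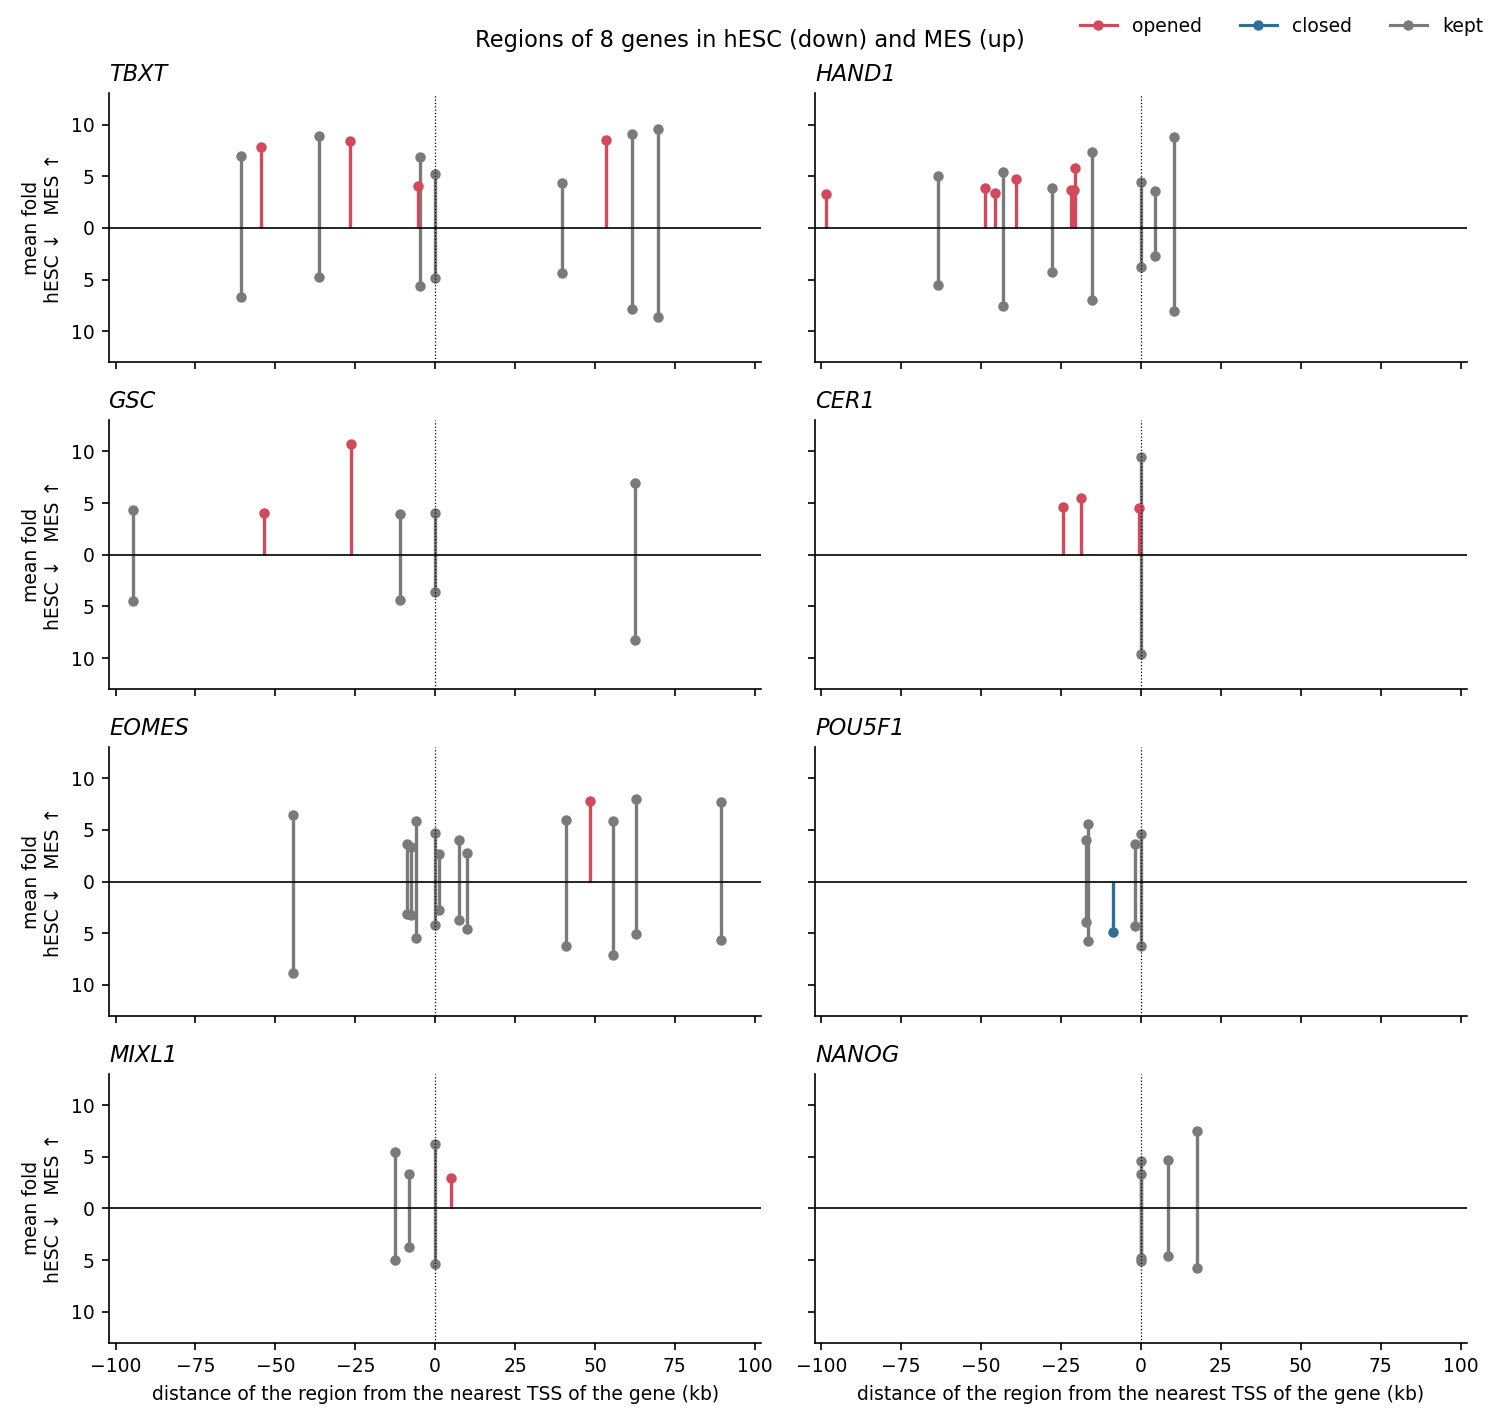
Regions of 8 genes by distance from the nearest TSS of the gene in kb (x axis) and mean deposited fold of the 2 libraries of a stage (y axis), with MES drawn upward and hESC downward; opened regions are red, closed blue and kept grey. TBXT has 4 opened regions, HAND1 7 and NANOG none, and the promoters of all 8 genes carry a kept region.

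Genes of the Wnt pathway had opened and closed regions. Of 485 regions at 24 Wnt ligands, feedback and target genes, 48 were opened (9.90%) and 26 closed (5.36%). WNT8A, a ligand of the gastrulating embryo, had an opened region 26.6 kb downstream with folds of 7.46 and 12.1 in MES, and a closed one 6.8 kb upstream with 5.67 and 6.55 in hESC. Between that closed region and the gene, the kept region 5.8 kb upstream of WNT8A had 3.92 and 4.04 in hESC and 8.26 and 9.5 in MES, a log2 change of 1.10 (SE 0.19, limma adjusted p = 0.000393). A kept region 11.4 kb downstream of WNT8A fell, from 7.80 and 6.97 to 5.07 and 4.66, a log2 change of -0.65 (limma adjusted p = 0.0422), and was lost without hESC replicate 1 (adjusted p = 0.263) or MES replicate 2 (adjusted p = 0.308). WNT3, the ligand required for the streak, had opened regions 13.8 kb upstream (4.97 and 5.31) and 4.5 kb downstream (4.13 and 3.74) and a closed one 10.1 kb upstream (4.66 and 4.09).

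Feedback and target genes of Wnt signalling gained regions of moderate height. AXIN2, a negative regulator that Wnt signalling itself induces, had 3 opened and no closed regions, with folds between 3.72 and 5.01, and the one 6.7 kb upstream holds the T-box letters. LEF1, a nuclear effector of the pathway, had 2 opened regions in its introns, at 4.05 and 3.74 and at 3.86 and 3.27. SP5, a direct Wnt target, had 2 opened regions and 1 closed, with folds under 5 in each library. DKK1, a secreted inhibitor, had 4 opened and 2 closed regions, and its region 43.9 kb downstream had 7.46 and 6.48 in MES and peaks in all 4 later libraries. TCF7L2, another nuclear effector, had 5 opened and 4 closed regions. The kept region 13.3 kb upstream of TCF7L1, which encodes a repressor of the same family, had 12.8 and 12.8 in hESC and 6.10 and 9.72 in MES, a log2 change of -0.79 (limma adjusted p = 0.00218). That of AXIN2 27.0 kb downstream had 3.92 and 4.03 against 6.54 and 6.86, a log2 change of 0.70 (limma adjusted p = 0.0258), and was lost without any 1 of the 4 libraries (adjusted p from 0.0613 to 0.127).

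At 24 genes of the NODAL and BMP pathways, 39 of 377 regions were opened (10.3%) and 17 closed (4.51%). NODAL, the ligand that sets mesendoderm, had an opened region 3.8 kb downstream, in an intron, with folds of 2.71 and 3.01 and the GATA letters. Its kept region 3.2 kb upstream had 2.90 and 3.06 in hESC and 4.75 and 5.53 in MES, a log2 change of 0.73 (limma adjusted p = 0.0147) that was lost without hESC replicate 1, hESC replicate 2 or MES replicate 2 (adjusted p from 0.0576 to 0.0694). The antagonist CER1 had 3 opened regions, at 0.742, 18.9 and 24.4 kb upstream, with folds of 4.30 and 4.75, 5.43 and 5.47, and 4.25 and 4.98, while its promoter was kept at 8.43 to 10.8 in all 4 libraries. The receptor gene BMPR1B had 6 opened and 3 closed regions, and the ligand gene BMP2 4 opened and none closed, with the tallest, 81.5 kb downstream, at 9.01 and 10.4. BMP4 went the other way, with 1 opened and 2 closed regions.

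FGF genes gained regions with few losses. Of 313 regions at 18 FGF ligands, receptors and feedback genes, 32 were opened (10.2%) and 7 closed (2.24%). FGFR2 had 4 opened regions and 1 closed, and the opened one 3.4 kb downstream, in a UTR, had folds of 6.66 and 8.90 and peaks in all 4 later libraries. SPRED2, an inhibitor of the ERK cascade, had 5 opened and 1 closed, and FGF8, a ligand of the streak, had none of either. At FGFR1 a kept region 62.0 kb upstream had 8.05 and 7.94 in hESC and 4.63 and 3.87 in MES, a log2 change of -0.97 (limma adjusted p = 0.00241). Another of its kept regions, 98.4 kb upstream, went the other way, from 4.22 and 3.14 to 6.14 and 7.01, a log2 change of 0.80 (limma adjusted p = 0.0157), a call that was lost without hESC replicate 2 (adjusted p = 0.242).

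Genes of the epithelial to mesenchymal change had opened regions on both sides, with the mesenchymal share further above the 6.91% of all genes than the epithelial one. Among 15 mesenchymal genes, 29 of 240 regions were opened (12.1%) and 11 closed (4.58%), and among 15 genes of epithelial adhesion and polarity 15 of 175 were opened (8.57%) and 5 closed (2.86%). CDH2 (N-cadherin), which replaces CDH1 as cells leave the streak, had 8 opened and 2 closed regions. The tallest of the opened ones, 90.2 kb downstream, had folds of 7.73 and 11.9 and the T-box and FOX letters. HAS2, a hyaluronan synthase, had 7 opened and 2 closed regions, and FN1 had 2 opened, of which the one 18.5 kb downstream had 8.50 and 7.91 in MES and 4.19 to 7.56 in the later libraries. CDH1 (E-cadherin) itself had 2 opened regions in introns, at 4.08 and 3.44 and at 3.51 and 3.74, no closed one, and 6 kept regions of which none passed the test.

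Heart genes split by role. At 21 transcription factors of cardiac mesoderm and heart, 48 of 435 regions were opened (11.0%) and 17 closed (3.91%), whereas at 23 sarcomere and calcium handling genes 8 of 202 were opened (3.96%) and 10 closed (4.95%). The opened share of the first list was above that of all genes in each of 9 settings (ratio 1.19 to 1.75) and that of the second below it in each (0.517 to 0.844). HAND1 had 7 opened and no closed regions, all upstream. The one 20.6 kb upstream had 5.74 and 5.78 in MES, and the one 98.5 kb upstream had MES folds of 3.42 and 3.11, followed by 7.14 and 11.4 in the CP pair and 5.92 and 8.08 in the CM pair. GATA6, a factor of heart and endoderm, had 5 opened and no closed regions, and its kept region 58.9 kb upstream had 3.71 and 5.42 in hESC and 7.87 and 11.2 in MES, a log2 change of 1.01 (SE 0.20, limma adjusted p = 0.00153). GATA4 opened at its promoter, 0.092 kb downstream of a TSS, with MES folds of 3.36 and 3.81, which were 4.02 and 4.79 at the CP stage and 4.64 and 5.10 at the CM stage. TTN, which encodes the sarcomere protein titin, had no opened region and 2 closed ones, both in coding exons, with folds of 6.29 and 6.05 and of 5.93 and 5.24 in hESC and no peak in any CP or CM library.

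Pluripotency genes had few closed regions, at a share near that of all genes. Of 306 regions at 24 pluripotency factors and stem cell genes, 12 were closed (3.92%, against 4.49%), 17 were opened (5.56%) and 113 were kept, including the TSS of 22 genes. Of all protein-coding genes, 69.3% had a kept TSS. A region within 1 kb of a TSS was closed at 3 of the 24 genes and opened at none. Over all 19618 protein-coding genes, 321 had such a closed region. The closed share stood at 0.802 to 1.06 times that of all genes over 9 settings; it was 21.0% without hESC replicate 1, against 22.4% over all genes, and 10.3% without hESC replicate 2, against 10.3% over all genes. POU5F1 had 1 closed region, 8.7 kb upstream, with folds of 5.19 and 4.47 in hESC and no peak in any later library, while its promoter had 4.82 and 7.72 in hESC and 4.52 and 4.69 in MES. SOX2, which neural cells also use, had 1 closed region 0.521 kb upstream, at 2.28 and 2.59, and 1 opened 9.7 kb upstream, at 3.83 and 3.25. The closed one lay between kept regions 1.13 and 0.112 kb upstream. The kept region 0.112 kb upstream had 4.25 and 4.90 in hESC and 5.06 and 4.55 in MES. CM replicate 1 had a peak of 6.01 at the closed region and at both of these kept ones.

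No region closed at NANOG, TDGF1, SALL4 or DNMT3B. NANOG had 4 kept regions and no opened or closed one, and none passed the test. Its promoter held 2 of them, with folds of 3.69 and 5.83 and of 5.73 and 4.47 in hESC and of 3.77 and 2.98 and of 4.58 and 4.68 in MES, and neither had a peak in any CP or CM library. TDGF1, a NODAL co-receptor, had 1 opened region, at 2.82 in both MES libraries, and SALL4 and DNMT3B had none. SALL4 had 5 kept regions of 15 and DNMT3B 4 of 7, and the others had a peak in some other combination of the 4 libraries. Without hESC replicate 1, 3 regions of SALL4, 1 of DNMT3B and 1 of NANOG counted as closed, and without MES replicate 2, 1 of SALL4 did. OTX2, a homeobox factor of the primed state and of the anterior embryo, changed on both sides. It had a closed region 88.8 kb upstream at 5.07 and 6.50, an opened one 42 kb upstream at 5.46 and 7.40, and a kept region 78.4 kb upstream at 7.20 and 6.82 in hESC and 3.76 and 3.98 in MES, a log2 change of -0.91 (SE 0.20, limma adjusted p = 0.00358), with no peak later. KLF4 rose at a kept region 29.4 kb downstream, from 3.63 and 3.20 to 9.21 and 9.64, a log2 change of 1.41 (SE 0.20, limma adjusted p = 3.1e-05).

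Markers of other fates were read for the make-up of the MES libraries. At 14 definitive endoderm genes 28 of 234 regions were opened (12.0%) and 7 closed (2.99%), close to the shares of the streak list. The chemokine receptor gene CXCR4 had 7 opened and no closed regions, FOXA2 4 and 2, SOX17 3 and 1, and HHEX none. The study reports the highest expression of CXCR4 in cardiac progenitors, so its regions need not mark endoderm. The tallest of FOXA2, 16.1 kb upstream, had folds of 8.95 and 9.51. At 18 neural ectoderm genes 14 of 265 were opened (5.28%) and 18 closed (6.79%): PAX6 had 2 opened and 3 closed, SOX1 1 and 2, SIX3 4 and 0 and LHX2 1 and 0. At 14 endothelial and blood genes 8 of 188 were opened (4.26%) and 10 closed (5.32%), with 1 closed region each at TAL1 and ETV2, 1 opened and 2 closed at CDH5, and no region at all at GATA1. Of the mesoderm markers, TBXT, EOMES, MIXL1 and TBX6 had an opened region and MESP1 and MSGN1 had none. FOXA2, SOX17 and CXCR4 thus had opened regions beside those of mesoderm markers. Whether the same cells or different cells of a culture carried them was not tested.

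The remaining lists had opened shares at or below the 6.91% of all genes, and closed shares below the 4.49%. The 39 HOX genes had 6 opened (4.35%) and 5 closed (3.62%) of 138 regions, and 16 housekeeping genes had 7 opened (6.54%) and 1 closed (0.935%) of 107. The plot of shares by gene list places the streak, mesenchymal, endoderm and cardiac factor lists furthest above the opened share of all genes.

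Over single genes, long genes led both lists. The most opened regions were at DLG2 (15), a synaptic scaffold gene, PTPRM (14), a receptor phosphatase gene, SEMA6A and MSI2 (12 each), and MAPK10 and TIAM1 (11 each), followed by DMD, DLC1, COL13A1 and TENM4 with 10. The most closed were at NTM (12), DLG2 (11), NAV3 and RBFOX1 (9 each) and UTRN, SGCD and ASTN2 (8 each), followed by NRXN3, NFIA and AUTS2 with 7. These genes are 131 to 2474 kb long, against a median of 27.3 kb over all protein-coding genes. DLG2 stands in both lists, with 134 regions in all, whereas TIAM1 had 11 opened and no closed region. Of all protein-coding genes, 435 had at least 3 opened and no closed region and 74 the reverse.

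Most of the strongest opened regions lay far from genes or within introns. The first by the lower −log10 q of its 2 libraries was 1449 kb from the nearest TSS, that of C4orf33, with folds of 17.1 and 17.3 in MES and 5.09 to 14.6 in all 4 later libraries. The SGCD region printed above had 13.1 and 13.6, with peaks in both CP libraries, although SGCD as a whole had 2 opened and 8 closed regions. A further 7 of the first 10 were nearest to VOPP1, TMTC2, GPM6A, PKD1L1, LRFN5, KCNMA1 and PSMB1, with folds from 8.22 to 16.6. All 10 had a peak in CP replicate 1.

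Few of the strongest closed regions were seen again. The region 1.46 kb upstream of OR6A2 had folds of 11.2 and 10.6 in hESC and no peak in any of the 6 other libraries. The 9 others of the first 10 were nearest to ATXN3L, CCNL1, PTBP2, LMO4, SPATA7, IRAK1BP1, KCND2, FTH1 and NHS, with folds from 7.33 to 13.9. None of the 10 had a peak in CM or in CP replicate 1, and 3 had one in CP replicate 2.

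Opened and closed regions differed in the letters they hold. In 200 bp around the summit, both strands, the GATA letters stood in 4666 opened regions (26.9%, 26.3 to 27.6%), against 6.88% of closed, 5.50% of kept and 9.65% of all merged regions. GATA factors bind these letters in mesoderm, endoderm and blood. The T-box letters stood in 1831 opened regions (10.6%, 10.1 to 11.0%), against 3.16, 3.35 and 4.78%. The GSC/OTX letters, bound by homeobox factors such as goosecoid and OTX2, stood in 2704 opened regions (15.6%, 15.1 to 16.1%), against 6.53, 4.88 and 7.47%, and the paired homeodomain letters in 1.45%, against 0.149, 0.135 and 0.343%. The FOX letters (TGTTTAC) followed with 7.34% of opened and 2.59% of closed regions, and the TCF/LEF letters, where Wnt signalling acts, with 4.20 and 2.79%. At least 1 of the GATA, T-box, GSC/OTX and paired homeodomain letters stood in 45.2% of opened, 15.5% of closed and 13% of kept regions. The GATA and T-box shares of opened regions were 18.8 and 8.30% without MES replicate 1, the lowest values without 1 library, and 17.7 and 7.48% with the replicate 1 lists alone. The order of opened above closed held in each of 10 settings for all 6 of these.

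Closed regions held the octamer and TEAD letters more often than opened ones. The octamer letters stood in 549 closed regions (4.83%, 4.45 to 5.24%), against 1.66% of opened, 2.02% of kept and 1.94% of all regions, and the share was 2.66% without hESC replicate 1. The TEAD letters (ACATTCC), bound by factors of the Hippo pathway, stood in 6.30% of closed and 3.46% of opened regions, and the SOX letters (CATTGTT) in 4.04 and 3.24%, an order that was lost without hESC replicate 1. Other letters set kept regions apart: those of CTCF, the factor of chromatin loops, stood in 9.93% of kept, 1.68% of opened and 3.01% of closed regions. The ZIC (CAGCAGG), AP-1 (TGANTCA) and E-box (CAGATG) letters differed less between opened and closed, at 16.7 and 12.2%, 8.67 and 9.39%, and 17.8 and 15.3%. Among the RefSeq promoters, the FOX letters stood in 3.42%, TEAD in 3.47%, SOX in 3.31%, CTCF in 2.41%, ZIC in 10.5%, AP-1 in 7.68% and E-box in 14.7%.

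The same letters rose with the strength of the peaks. Regions of a class were put into 4 bins of similar size by the lower of their −log10 q values, of 4011 to 4660 opened and 2488 to 3198 closed regions, and from the weakest to the strongest bin of opened regions the GATA share went 18, 24.9, 29.7 and 35.6%, the GSC/OTX share 11.1, 14.8, 17.0 and 19.8% and the T-box share 7.79, 9.92, 11.0 and 13.7%. From the weakest to the strongest bin of closed regions, the octamer share went 3.35, 3.74, 4.36 and 7.91%. Over the same bins the GATA share also rose, from 5.19 to 8.16%, and the GSC/OTX share from 5.57 to 7.28%. The T-box share fell from 3.72 to 2.78%. A rise of the GATA and GSC/OTX letters with strength was therefore not particular to opened regions.

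Some regions share more than short letters. Windows were linked where they had 10 or more words of 24 bases in common, and 15039 of the 228827 regions (6.57%) had such a relative, among them 8.34% of opened, 9.03% of closed and 6.14% of kept regions. Among the windows printed above, that of OR6A2 belongs to a linked group of 50 regions, and the opened ones have no relative. The largest linked group, of 2012 regions, was split into 4 families by words of 14 bases that occur together, and any region with 5 or more words of a family was counted in it. The families were built over all merged regions without regard to class, in an analysis added after the data had been seen, and no annotation of repeats was used. Reads that align equally well to many places had been removed by the authors, so near-identical copies are under-represented.

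The family with the highest opened share held 332 regions. Of these 198 were opened (59.6%, 54.3 to 64.8%), 1 was closed and 5 were kept, and 308 (92.8%) had a peak in at least 1 MES library and in no hESC library. Over all merged regions, 7.58% had peaks in both MES libraries only, 15.5% in MES replicate 2 only and 3.95% in MES replicate 1 only. Copies without a peak in any of the 4 libraries enter none of these shares. The opened members lay on 22 chromosomes, none within 1 kb of a TSS, and 159 of the 198 (80.3%) hold the T-box letters and 144 (72.7%) the GSC/OTX letters, but 2.02% the GATA letters. Their median folds were 5.43 and 6.28 in MES, and 69.7% had no peak in any later library. The opened share was 52.3% when 3 words were enough, over 386 regions, and 61.0% with words found in 5% of the starting windows.

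Another of the 4 families held 1771 regions. Of these 450 were opened (25.4%, 23.4 to 27.5%), 51 closed (2.88%) and 103 kept, and 342 of the 450 (76.0%) hold the GSC/OTX letters and 2.22% the T-box letters. The opened region of EOMES, 48.5 kb downstream, is among the 450. The other two families had 129 opened and 213 closed of 2672 regions, and 107 opened and 53 closed of 695. Families made up 5.09% of opened (882 regions), 2.80% of closed and 0.992% of kept regions. Outside them the GSC/OTX letters stood in 13% of opened, 5.64% of closed and 4.66% of kept regions, the T-box letters in 9.91, 2.97 and 3.33% and the GATA letters in 27.4, 6.86 and 5.47%, so the order of the classes was the same.

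The later libraries took no part in choosing the regions, and they held far more of the opened than of the closed ones. CP replicate 1 had a peak at 35.7% of opened regions and CP replicate 2 at 40.4%, against 11.0 and 13.2% of closed and 82.2 and 85.0% of kept regions. CM replicate 1 had one at 20.6% and CM replicate 2 at 10.3% of opened regions, against 7.76 and 3.52% of closed and 67.2 and 51.4% of kept. Both CP libraries had a peak at 25.4% of opened (24.8 to 26.0%) and 4.05% of closed regions (3.70 to 4.42%), and none of the 4 later libraries at 45.6% and 75.6%. Over all merged regions, which include the kept ones, these shares were 28.1% and 48.6%. Both CM libraries had a peak at 8.01% of opened regions and at 15.8% of all merged regions. Opened regions were thus above closed ones, but not above all merged regions, in peaks shared by both libraries of a later stage. The CP share of opened regions was 12.6% without MES replicate 1, and that of closed regions was 12.0% without MES replicate 2. In each of 9 settings it was higher for opened than for closed regions.

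Which opened regions were found again varied with their letters. Of 4312 opened regions with the GATA but not the T-box letters, 34.9% (33.4 to 36.3%) had a peak in both CP libraries and 12.5% in both CM libraries. Of 1477 with the T-box but not the GATA letters, 18.1% (16.2 to 20.1%) and 5.01% did, of 354 with both 29.7% and 10.7%, and of 11191 with neither 22.6% and 6.59%. The paired homeodomain letters went with the lowest share, 16.3% in both CP libraries, and 62.9% of those 251 regions had no later peak. Strength moved with the same share, since both CP libraries had a peak at 16, 18.7, 23.5 and 43.8% of opened regions in the 4 strength bins, from weakest to strongest. Within those bins, regions with the GATA letters stood at 22.5, 23.3, 29.6 and 52.4% and those without at 14.5, 17.2, 20.9 and 39.0%. Closed regions with the octamer letters had a peak in both CP libraries in 1.28% of cases (0.62 to 2.61%) and in no later library in 91.1%, against 4.19% and 74.8% of closed regions without them.

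Opened regions of several gene lists were found again more often than those of all genes. Both CP libraries had a peak at 23 of 48 opened regions of cardiac factors (47.9%) and both CM libraries at 12 (25.0%), against 25.7% and 8.47% of the opened regions of all genes. The streak list had 15 of 35 (42.9%) in CP and 5 in CM, and the endoderm list 12 of 28 (42.9%) in CP and 2 in CM. The epithelial list had 8 of 15 (53.3%) in CP and 2 in CM. Of 8 opened regions at sarcomere genes, 5 were found in both CP and 5 in both CM libraries. The NODAL and BMP list had 9 of 39 (23.1%), the pluripotency list 1 of 17 (5.88%) and the endothelial and blood list none of 8. None of the 26 closed regions at Wnt genes and none of the 17 at NODAL and BMP genes had a peak in both CP libraries, against 4.47% over all genes.

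Regions with a peak in all 4 libraries allow a test of height. The log2 fold of the 59796 kept regions, centred on the median of each library, was compared with limma across all of them. At an adjusted p under 0.05, 1820 regions (3.04%) were higher in MES, with a median log2 change of 0.77, and 1924 (3.22%) were lower, with a median of -0.75. Changes of at least 2-fold were found in 377 and 250 of these. Promoters were rare among them, as 3.68% of the higher and 3.17% of the lower regions lay within 1 kb of a TSS, against 28.5% of those not called. Higher regions made up 48.6% of the calls, but 66.8% when the libraries were not centred, which left 492 higher and 244 lower. Leaving out a library gave 1242 to 1736 higher and 1331 to 1689 lower regions.

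Higher and lower kept regions differed in some of the letters that opened and closed ones did. The GATA letters stood in 15% and the FOX letters in 9.12% of higher regions, against 5.50 and 3.25% of all kept regions. The ZIC letters stood in 25.9% of higher and 14.8% of lower regions, against 15.1% of all kept ones, and the TCF/LEF letters in 4.01 and 3.95%, against 2.15%. The octamer letters stood in 8.52%, the TEAD letters in 7.80% and the SOX letters in 5.98% of lower regions, against 2.02, 3.51 and 2.30% of all kept regions. Both CP libraries had a peak at 80.5% of the higher, 34.6% of the lower and 77.2% of the other kept regions, and both CM libraries at 30.0, 9.62 and 50.5%.

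The nearest TSS was 15.8 to 1007 kb away from the 10 largest changes each way, several of which lay in introns. The kept region nearest to ZC3H11C had 3.87 and 3.74 in hESC and 14.8 and 15.3 in MES, a log2 change of 1.93 (SE 0.18, limma adjusted p = 1.79e-07). The next 9 rises, nearest to SEMA3D, C12orf50, SYT4, FKBP1C, SNX7, SVEP1, CHODL, NAALADL2 and MRPS30, were of 1.76 to 1.90, and hESC folds in all 10 were between 2.85 and 5.34. The largest fall, 15.8 kb downstream of SMIM43, was from 14.4 and 16.7 to 4.75 and 3.65, a log2 change of -1.95 (SE 0.18, limma adjusted p = 2.17e-07). The next 9, nearest to TET2, PLOD2, PRR20A, GRIK2, CCNH, DOK6, TDRD15, SORCS1 and NECTIN3, fell by 1.58 to 1.8 on the log2 scale, and 8 of these 9 had no peak in any CP or CM library.

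There were 83 called kept regions that are named here or belong to a listed gene. Of these, 25 held their direction and call in each alternative setting that gave them a value. They are the 20 above and a region each of WNT8A (5.8 kb upstream), KLF4, NEBL, SFRP2 and PAX3 (14.9 kb downstream). Every other called kept region named in the text lost its call or direction in some setting. These include the regions of PDGFRA, PLN, GATA6, TCF7L1, FGFR1 and OTX2. Of the 10 settings, 1 required a −log10 q of at least 5 in all 4 libraries. That setting left out regions with a weaker peak, such as those of ZC3H11C, KLF4 and NEBL. NEBL, which encodes nebulette of the cardiac Z-disc, had a kept region 6.9 kb downstream at 3.74 and 6.05 in hESC and 11.4 and 12.6 in MES, a log2 change of 1.28 (SE 0.19, limma adjusted p = 6.86e-05). SFRP2, a secreted Wnt antagonist, had one 42.1 kb upstream at 4.07 and 3.56 against 8.44 and 8.16, a log2 change of 1.07 (limma adjusted p = 0.000807), and PAX3, a factor of neural crest and muscle precursors, had one 14.9 kb downstream at 7.11 and 6.76 against 11.3 and 15.2, a log2 change of 0.86 (limma adjusted p = 0.000642). At PDGFRA the kept region 33.5 kb downstream had 4.69 and 4.67 against 8.04 and 10.5, a log2 change of 0.92 (limma adjusted p = 0.00203). The values of the stages did not overlap in any of these, but the calls were made on the same values, so this adds nothing to them. Falls included PLN, a regulator of the cardiac calcium pump, 23.4 kb upstream, from 8.71 and 9.65 to 4.75 and 5.47, a log2 change of -0.90 (limma adjusted p = 0.00195), and the promoter of HOXB1, from 4.66 and 4.38 to 2.92 and 2.24, a log2 change of -0.87 (limma adjusted p = 0.00454), which was lost without MES replicate 2 (adjusted p = 0.187).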

How the data were processed

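ATAC-seq was read in 8 RUES2 libraries, of which the hESC and MES pairs define the regions and the CP and CM pairs are read at them. The authors used BWA-MEM and hg38 for the paired reads, dropped duplicates (Picard) and all but primary alignments of MAPQ above 30, and ran MACS2 on each library alone. Peak calling used no fragment model, a q limit of 0.01, a backward shift of 100 bp and an extension to 200 bp. The submitters' processing notes give BWA 0.7.13 and MACS2 2.1.0. Each deposited peak carries a fold enrichment (a ratio), a −log10 p and a −log10 q. The display score was not used, read totals are not in these files, and the depth of a library is unknown here.

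Peaks on chromosomes 1 to 22 and X were merged with bedtools 2.31.1. TSSs are of protein-coding transcripts in GENCODE 44, on GRCh38. Sequence was read with pysam 0.24.0, promoters are from RefSeq, and 13 consensus sequences were counted in 200 bp. Kept regions were tested with limma 3.58.1 in R 4.3.3 (trend, two-sided, Benjamini-Hochberg over all kept regions, threshold 0.05), on log2 of the deposited fold, centred by library. This was tested on simulated data. The p-values measure the spread between 2 libraries a stage, which may be technical, and intervals cover counting error only. Same-numbered libraries did not deviate together in the height of kept regions (correlation 0.0833), and the replicate number entered no block. The number of peaks did go with it, as both replicate 2 libraries held more peaks than the replicate 1 libraries.

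Members, gene lists and consensus sequences were chosen with earlier results of these data known. The text names 26 core genes, up to 3 genes of each of 14 lists with the most opened or closed regions, the 10 genes and 10 regions leading each class, and the 10 largest changes each way in kept regions. Other genes it names were chosen after their values were seen, as were the sequence families and the comparison of 1 hESC with 1 MES list. Alternatives changed the q limit, list length, overlap, chromosome X, TSS set, window, assignment distance, normalization and the libraries used. Of the 10 leading opened regions, 1 is not reported here.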

Additional observations from a re-analysis of the deposited data

How the results depend on the processing

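With the replicate 1 lists only, an alternative chosen after seeing the data, there were 40437 opened and 34610 closed regions, and with the replicate 2 lists only 57014 opened, 57151 closed and 95567 kept, so opened outnumbered closed regions with the replicate 1 lists and not with the replicate 2 lists. Leaving out 1 library gave 19232 to 53255 opened, 13640 to 52230 closed and 61776 to 71353 kept regions. The share within 1 kb of a TSS was 2.70 to 4.30% of opened, 3.42 to 3.67% of closed and 23.4 to 26.4% of kept regions without 1 library. It was 2.89% of opened and 29.1% of kept regions with lists of equal length, 3.21% of closed and 30.3% of kept when peaks had to cover 50% of a region, 28.1% of kept with a −log10 q of at least 5, and 7.95, 8.34 and 35.4% with TSSs of all transcripts. The T-box share of opened regions was 8.30 to 10.3% without 1 library, 11.2% with equal lists and 14.7% over the whole region. Their GATA share was 18.8 to 25.7% without 1 library, 27.8% at the stricter q, 25.9% at 50% coverage and 37.6% over the whole region. The octamer share of closed regions was 2.66 to 4.82% without 1 library, 5.34% at the stricter q, 5.24% with equal lists and 7.11% over the whole region. A peak in both CP libraries was found at 12.6 to 30.8% of opened and 3.08 to 12.0% of closed regions without 1 library, and at 24.3 and 3.15% at the stricter q, 32.2 and 7.24% with equal lists and 29.4 and 6.95% at 50% coverage. Without 1 library 5.98 to 21.0% of pluripotency regions were closed and 15.1 to 26.8% of streak regions opened. Fewer libraries set a looser rule, which adds regions by construction; other causes were not tested. Of kept regions, 1242 to 1736 were higher and 1331 to 1689 lower without 1 library, 492 and 244 without centring and 3785 and 3349 as pileup over mean background, under which SP5 8.5 kb downstream (log2 0.33, adjusted p = 0.459) and EOMES 10.1 kb downstream (log2 0.48, adjusted p = 0.044) reversed. With the replicate number as a block, 1554 were higher and 1565 lower, but same-numbered libraries did not deviate together (correlation 0.0833 over kept regions). Of 805 values of 83 named kept regions, 625 kept their call and direction and 178 lost the call. Read depth is unknown, so the part that sequencing depth plays in peak numbers was not tested.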
